A study of Homo sapiens with 6 samples.

Results

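The mitochondrially encoded complex I genes are ND1, ND2, ND3, ND4, ND4L, ND5 and ND6, the 7 members, found by their symbols among the 24305 genes of the count table. All 7 were present and all 7 passed the filter on low counts. They were measured by RNA sequencing of DU 145, an established line of human prostate cancer that resists castration, labelled as epithelial, in 6 bulk libraries of 1 cell line. Cells had 48 h with talazoparib, an inhibitor of the DNA repair enzymes PARP1 and PARP2 (n = 3 libraries), or 48 h as controls (n = 3), whose label reads "DMOS", taken as the solvent DMSO. The series asks how the drug acts on DU 145 cells, which it describes as deficient in homologous recombination repair, and it names doses of 5, 10 and 20 µM without saying which was sequenced. The labels do not say whether libraries of a group are separate cultures. The p-values therefore cover only how these libraries varied, and that variation can be technical.

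Complex I, NADH dehydrogenase, takes electrons from NADH, passes them to ubiquinone and pumps protons across the inner mitochondrial membrane. Its hydrophobic core in the membrane arm is encoded in mitochondrial DNA and made on mitochondrial ribosomes, while all other subunits come from nuclear genes. ND2, ND4 and ND5 are the antiporter-like pumping subunits, ND1 forms much of the ubiquinone pocket, and ND3, ND4L and ND6 join that pocket to the pumps. Mitochondrial DNA is read as long precursors from both strands, which are cut at the tRNAs between the mRNAs. ND6 is the only protein gene read from the light-strand promoter, and its mRNA is known to lack a poly(A) tail. ND4L and ND4 stay together on 1 mRNA.

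The genes have no introns, and the positions below are from GENCODE release 29 on GRCh38, mitochondrial chromosome M. ND1 spans 3307 to 4262, ND2 4470 to 5511, ND3 10059 to 10404, ND4L 10470 to 10766, ND4 10760 to 12137 and ND5 12337 to 14148, all on the plus strand. ND6 lies on the minus strand, 14149 to 14673. The gene lengths implied by the deposited FPKM values equalled these annotated lengths for all 7. Of the sequences below, the first lines show how each gene but ND4 begins, with the start codon in capitals, and ND4 follows in the next pair. Mitochondria read ATA and ATT, as well as ATG, as starts, so the members differ in that codon.

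ND1, chrM:3307-3336: ATAcccatggccaacctcctactcctcatt
ND2, chrM:4470-4499: ATTaatcccctggcccaacccgtcatctac
ND3, chrM:10059-10088: ATAaacttcgccttaattttaataatcaac
ND4L, chrM:10470-10499: ATGcccctcatttacataaatattatacta
ND5, chrM:12337-12366: ATAaccatgcacactactataaccacccta
ND6, minus strand, chrM:14644-14673: ATGatgtatgctttgtttctgttgagtgtg

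The next pair shows where ND4L and ND4 share 7 bases, in capitals: the end of ND4L holds the start codon of ND4. It is printed because the values of these members moved together.

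End of ND4L, chrM:10737-10766: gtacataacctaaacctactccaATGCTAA
Start of ND4, chrM:10760-10789: ATGCTAAaactaatcgtcccaacaattata

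The last pair shows the ends of ND5 and ND6, which meet at adjacent bases on opposite strands without an overlap. It is printed because the ratio of these members differed between the groups without overlap.

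End of ND5, chrM:14119-14148: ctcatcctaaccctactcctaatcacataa
End of ND6, minus strand, chrM:14149-14178: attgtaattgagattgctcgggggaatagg

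How the authors' counting assigned reads in the shared bases, and whether it used strand, is not given in the sources used here. Without strand, reads of ND6 cannot be told apart from reads of any RNA of the opposite strand, the precursor included. GENCODE annotates 215 nuclear copies of the 7 genes (22 to 38 a gene), none of which had a row of its own among the rows analysed here. Reads that such copies share with the mitochondrial genes are therefore uncertain.

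Total counts ran from 39123997 to 39585727 a library, and the 7 members together held 1188858 to 1580791 of them. The lowest count of a member was 9040, for which counting error alone is 1.05%, below the spread between libraries. Talazoparib replicate 2 stood apart, with 8.11% of its counts in the 13 mitochondrial protein genes against 9.16% to 10.2% in the other 5 libraries. The epithelial markers KRT8 and KRT18 ran from 465 to 652 CPM, counts scaled to the TMM-adjusted library size, while EPCAM and CDH1 were at 0.609 to 6.54 CPM. The other 3 epithelial markers were higher with talazoparib without overlap: KRT7 went from between 387 and 480.2 CPM to between 804 and 897, KRT19 from between 39.3 and 46.9 to between 85.6 and 100.5, and CLDN4 from between 1.995 and 4.35 to between 10.2 and 13.2. The summed level of the 7 epithelial markers was 1434 to 1792 CPM in controls and 1991 to 2233 CPM with talazoparib. CTNNA1, absent from PC-3 cells, was at 297 to 318 CPM. PTPRC, CD3E and DCN had 0 counts, and CD68, which is also a lysosomal gene, ran from 23.9 to 27.04 CPM in controls and from 61.7 to 70.8 CPM with talazoparib. Of the stromal markers besides DCN, COL3A1 was at 21.05 to 23.2 CPM in controls and at 14.99 to 20.1 CPM with talazoparib, and COL1A1 was at 2.08 to 3.05 CPM over all libraries. The summed level of the 6 stromal and endothelial markers was 23.7 to 26.2 CPM in controls and 18.1 to 22.7 CPM with talazoparib. The markers' part in the results was not tested. PARP1, a target of the drug, had a log2 fold change of -0.07 ± 0.07 (SE, edgeR adjusted p = 0.435), and PARP2 fell (-0.26 ± 0.09, edgeR adjusted p = 0.0190). The fall of PARP2 did not pass with trends over GC content and gene length removed from all genes (-0.058, edgeR adjusted p = 0.554).

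The members did not move as a block. In the quasi-likelihood test of edgeR, adjusted by Benjamini-Hochberg over all 14452 genes tested, ND3 rose, ND4, ND4L and ND5 fell, and ND1, ND2 and ND6 did not pass. That is 4 of 7 called, where 56.7% of all genes tested were called, and 1 of 7 higher and 3 of 7 lower, where 26.8% rose and 29.9% fell. Read against that background, these counts are not a result particular to the members. The groups did not overlap for 5 of 7 members, against 64.4% of all genes tested. The median log2 fold change of the members was -0.19, beside 0.00150 over all genes tested. From -0.39 for ND5 to 0.47 for ND3, their changes lay between percentiles 30.003 and 83.9 of all genes tested. In bulk RNA, fewer cells that hold an mRNA and less of it per cell cannot be told apart.

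**Figure D1:**
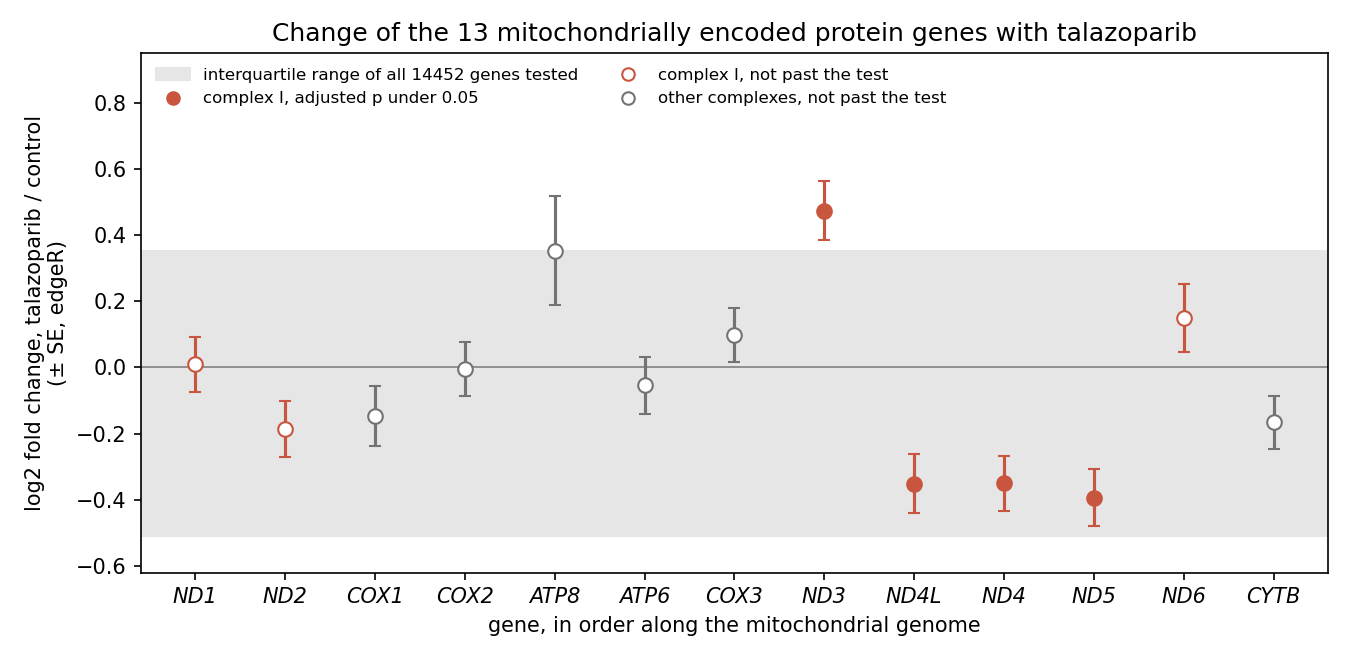
Log2 fold change of talazoparib over control for each of the 13 mitochondrially encoded protein genes, in order along the genome, with SE from edgeR (3 libraries a group); filled points passed an adjusted p of 0.05, red marks complex I, and the grey band holds the interquartile range of all genes tested. ND3 at 0.47 stands beside ND4L, ND4 and ND5 at -0.35, -0.35 and -0.39.

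ND3, the small subunit with a loop that reaches the ubiquinone pocket, was the member that rose. Its FPKM, the count scaled by gene length and library total, was 7986, 6760 and 7511 in control replicates 1 to 3 and 9937, 9919 and 9547 in talazoparib replicates 1 to 3. All talazoparib libraries were above all controls, and they lay closer together than the controls did. The mean went from 7419 ± 618 to 9801 ± 220.1 FPKM (SD, n = 3 each). On the scale of TMM-adjusted counts the log2 fold change was 0.47 ± 0.09 (SE; edgeR adjusted p = 0.000813), a rise of 38.9%. The call ended with the trend over gene length removed from all genes (0.087, edgeR adjusted p = 0.371), and with limma on log2(FPKM + 1) without a filter (0.40, adjusted p = 0.0689). With GC and length trend removed together it was 0.76 (edgeR adjusted p = 0.00169).

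The pumping subunits ND4 and ND5 fell, and so did ND4L. ND4 was at 11244, 11547 and 11222 FPKM in controls and at 8911, 7582 and 8880 FPKM with talazoparib. The talazoparib libraries were all lower, with replicate 2 the lowest. Its log2 fold change was -0.35 ± 0.08 (SE; edgeR adjusted p = 0.00349), a change of -21.5%. ND4L, on the same mRNA, was at 6577, 6843 and 6475 FPKM in controls and at 5288, 4183 and 5370 FPKM with talazoparib. Replicate 2 was again the lowest and the groups did not overlap. The log2 fold change of ND4L was -0.35 ± 0.09 (SE; edgeR adjusted p = 0.00540), so both genes of the shared mRNA fell by nearly the same amount. ND5, the pump at the far end of the membrane arm, was at 2204, 2356 and 2287 FPKM in controls and at 1766, 1431 and 1756 FPKM with talazoparib. It had the largest fall of the 7 members, with a log2 fold change of -0.39 ± 0.09 (SE; edgeR adjusted p = 0.00197). Without talazoparib replicate 2 the 3 genes still fell, with log2 fold changes of -0.29 (ND4), -0.26 (ND4L) and -0.31 (ND5). Their calls ended with the trend over GC content alone removed, at 0.077 (ND4), 0.16 (ND4L) and -0.019 (ND5). With GC and length trend removed together the 3 genes passed as lower, at -0.17 (ND4), -0.23 (ND4L) and -0.23 (ND5). The calls of ND4 and ND4L also ended with limma on log2(FPKM + 1) without a filter (adjusted p = 0.0730 and 0.0601).

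ND2, the pumping subunit next to the ubiquinone module, did not pass the test although its groups did not overlap. It was at 8244, 7806 and 8004 FPKM in controls and at 6876, 6053 and 7203 FPKM with talazoparib. Every talazoparib library was below every control, and the log2 fold change was -0.19 ± 0.08 (SE; edgeR adjusted p = 0.0770). ND2 passed as lower with total counts as the scale (-0.26, edgeR adjusted p = 0.0115) and with limma-voom (-0.19, adjusted p = 0.0416). So it did with limma on log2(FPKM + 1) or log2(FPKM + 0.1) of filtered genes (-0.26 in both, limma adjusted p = 0.0421 and 0.0258). It also passed as lower without control replicate 2 (-0.25, edgeR adjusted p = 0.0369) and with the length trend removed (-0.48). With GC trend alone removed it passed as higher (0.34, edgeR adjusted p = 0.00758).

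ND1 of the ubiquinone pocket was at 7219, 6519 and 6869 FPKM in controls and at 6812, 6159 and 6762 FPKM with talazoparib. These ranges overlap. FPKM is scaled by library total, and on the scale of TMM-adjusted counts the log2 fold change was 0.0091 ± 0.084 (SE, edgeR adjusted p = 0.933). That change is smaller than its error. With the length trend removed ND1 passed as lower (-0.30, edgeR adjusted p = 0.00370). ND6, from the opposite strand, was at 529, 479.6 and 497 FPKM in controls and at 592, 437 and 562 FPKM with talazoparib. In FPKM, talazoparib replicates 1 and 3 were above all controls and replicate 2 was below them. In CPM, talazoparib replicate 2 (240.3) was just above control replicate 2 (239.7). The log2 fold change of ND6 was 0.15 ± 0.10 (SE; edgeR adjusted p = 0.236). Without talazoparib replicate 2 it was 0.26 and passed (edgeR adjusted p = 0.0216), as it did with GC and length trend removed (0.33, edgeR adjusted p = 0.00800) or GC trend alone removed (0.69).

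**Figure D2:**
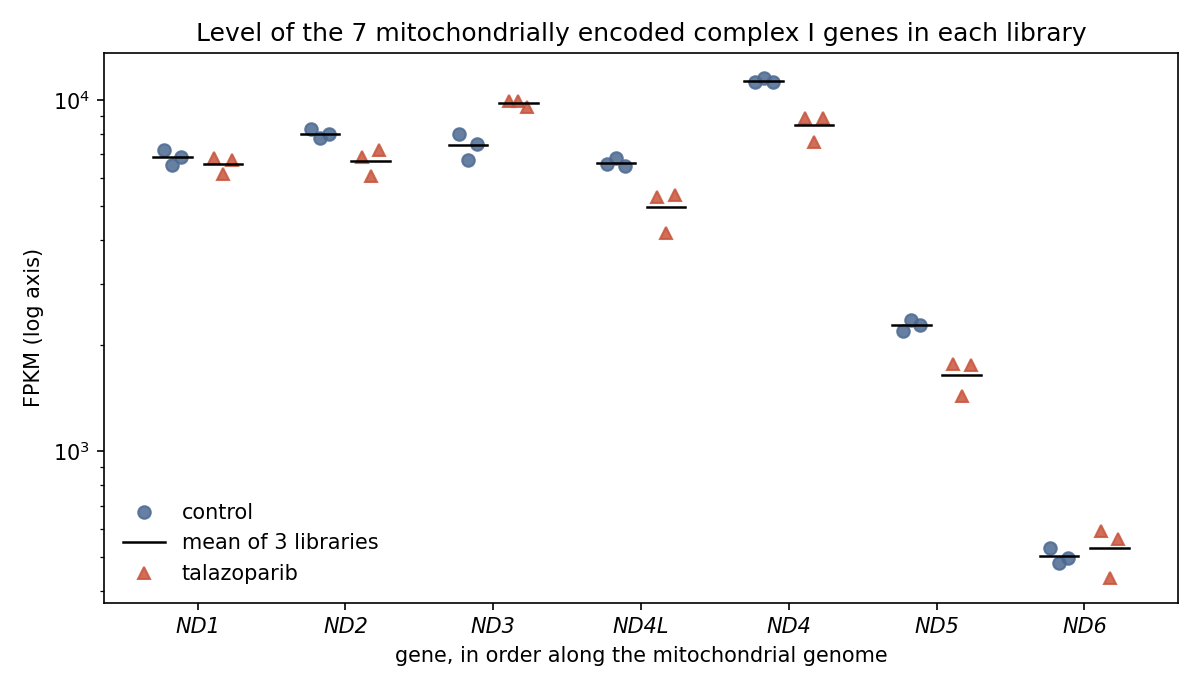
FPKM (log axis) of the 7 complex I genes in each of the 3 control (circles) and 3 talazoparib (triangles) libraries, with the mean as a bar, in genome order. ND4 was the highest member in every control library and ND3 in every talazoparib library, while ND6 was the lowest in all 6.

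Per length, the level of the members differed widely. In controls the order of mean FPKM was ND4 (11338 ± 181), ND2 (8018 ± 219), ND3 (7419 ± 618), ND1 (6869 ± 350.03), ND4L (6632 ± 190.1), ND5 (2282 ± 76.0) and ND6 (502 ± 25.1; SD, n = 3 each). The ranges over control libraries of ND2 and ND3, of ND3 and ND1, and of ND1 and ND4L overlapped, so the ranges alone do not order these neighbours. Within libraries, ND2 was above ND3 and ND3 above ND1 in 3 of 3 controls, and ND1 was above ND4L in 2 of 3. ND4 stood above the rest, and ND5 and ND6 below it, in every control library. With talazoparib ND3 ranked first (9801 ± 220.1 FPKM), ahead of ND4 (8458 ± 759), and no library of the one reached the other. ND6, the light-strand mRNA, stayed at 530.3 ± 82.5 FPKM. Whether the way RNA was captured affects the level of ND6, whose mRNA lacks a poly(A) tail, was not tested.

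Ratios between members within a library do not depend on how libraries are scaled. The ratio of ND4L to ND4 per length was 0.585, 0.593 and 0.577 in controls and 0.593, 0.552 and 0.605 with talazoparib. These values overlap, and the mean log2 ratio of ND4 to ND4L differed by 0.0049 between groups (exact permutation p = 1, two-sided). The ratio of ND3 to ND4L, its neighbour beyond a tRNA, was 1.21, 0.988 and 1.16 in controls and 1.88, 2.37 and 1.78 with talazoparib. Every talazoparib library was above every control, with replicate 2 the highest. The log2 ratio of ND4L to ND3 went from -0.16 ± 0.16 to -0.995 ± 0.22 (SD, n = 3 each). ND6 to ND5, whose ends meet on opposite strands, had a ratio of 0.240, 0.204 and 0.217 in controls and 0.335, 0.305 and 0.320 with talazoparib. On this ratio talazoparib replicate 2 did not stand apart, and the log2 ratio rose by 0.54. Of the 6 neighbouring pairs, chosen after the values of the members were seen, 4 had groups without overlap: ND2 to ND1 (-0.20), ND3 to ND2 (0.67), ND4L to ND3 (-0.84) and ND6 to ND5 (0.54, all as differences in mean log2 ratio). For those 4 the exact permutation p was 0.10, the smallest that 3 against 3 libraries can give, or 0.15 adjusted over the 6 pairs, so no ratio could pass 0.05. How often other pairs of genes lack overlap was not computed, so the count of 4 is not a result particular to these neighbours. ND5 to ND4 differed by -0.046 (exact permutation p = 0.30).

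**Figure D3:**
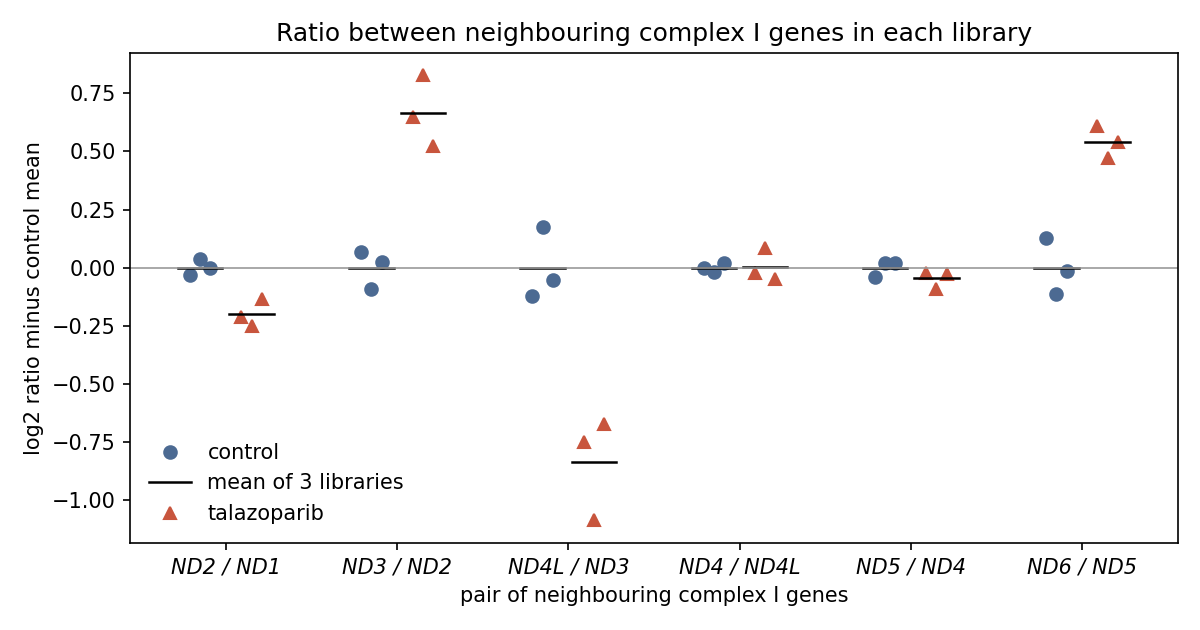
Log2 ratio per length between neighbouring complex I genes in each library, set to the control mean of each pair, with circles for 3 control and triangles for 3 talazoparib libraries and bars for means. ND4 / ND4L stays at the control level, while ND4L / ND3 is lower by 0.84 and ND6 / ND5 higher by 0.54.

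ND6 was set against the sum of the heavy-strand members, ND1 to ND5 with ND4L. The log2 ratio of its counts to that sum was -7.16, -7.27 and -7.22 in controls and -6.78, -7.03 and -6.86 with talazoparib. The talazoparib libraries were all higher, by 0.33 in the mean (exact permutation p = 0.10, two-sided, the smallest possible here). Against the geometric mean of the same members the difference was 0.28, and on FPKM it was 0.23. The heavy-strand members did not all go this way. Per length, ND2, ND4, ND4L and ND5 were lower relative to ND6 with talazoparib, without overlap between groups. The ratio of ND1 to ND6 overlapped (means of 13.7 in controls and 12.5 with talazoparib). ND3 to ND6 was higher with talazoparib without overlap (14.8 and 18.8).

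As a sum, the members took a smaller part of the libraries with talazoparib. They held 3.997%, 3.92% and 3.93% of all counts in controls and 3.45%, 3.01% and 3.46% with talazoparib. The groups did not overlap, with means of 3.95% ± 0.0432 and 3.31% ± 0.253 (SD, n = 3 each; exact permutation p = 0.10, two-sided). The 13 mitochondrial protein genes together held 10.2%, 9.82% and 9.82% in controls and 9.21%, 8.11% and 9.16% with talazoparib. With the members left out, the rest were also lower without overlap, so this is not particular to complex I. Within the 13 mitochondrial protein genes the members' share was 39.2%, 39.9% and 40.0% in controls and 37.5%, 37.2% and 37.8% with talazoparib. Here too the groups did not overlap (means 39.7% ± 0.402 and 37.5% ± 0.296; exact permutation p = 0.10). ND4 lost the most, from 15.7% ± 0.493 to 13.2% ± 0.269 of mitochondrial mRNA counts, and ND3 gained the most of the members, from 2.58% ± 0.175 to 3.86% ± 0.330. ND1, which did not pass against the whole library, went from 6.60% ± 0.227 to 7.13% ± 0.113 of mitochondrial mRNA counts. All 7 members had shares without overlap between groups, each with an exact permutation p of 0.10 and 0.13 adjusted over the 13 genes. So did CYTB, COX2 and COX3, which makes 10 of the 13 mitochondrial protein genes (76.9%), so the lack of overlap is not particular to complex I. Shares within a whole are tied to each other, so a gain of some requires a loss of others.

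The other 6 mitochondrial protein genes encode parts of complexes III, IV and V, and none of them passed edgeR's test. At an unadjusted p under 0.05 there was also none, and the smallest was 0.0556 for ATP8. Their log2 fold changes ran from -0.17 ± 0.08 (CYTB, cytochrome b; edgeR adjusted p = 0.0916) to 0.35 ± 0.16 (ATP8, a subunit of ATP synthase; adjusted p = 0.0887). COX1 was at -0.15 ± 0.09, COX2 at -0.0044 ± 0.083 and COX3 at 0.098 ± 0.081, all subunits of cytochrome oxidase, and ATP6 at -0.054 ± 0.087. Over 21 alternatives CYTB passed as lower in 8 and ATP8 as higher in 5. DESeq2 called ATP8 higher (0.36, adjusted p = 0.0293) and limma-voom called CYTB lower (-0.17, adjusted p = 0.0482). With GC and length trend removed, edgeR called ATP8 higher (0.60, adjusted p = 0.00571) and CYTB lower (-0.16, adjusted p = 0.0143). CYTB also passed as lower without control replicate 1 (edgeR adjusted p = 0.0428), without control replicate 2 (0.0292) and with limma on log2(FPKM + 1) or log2(FPKM + 0.1) of filtered genes (adjusted p = 0.0331 and 0.0182). Without talazoparib replicate 2, edgeR called ATP8 higher (0.56, adjusted p = 5.24e-05). With total counts as the scale it called CYTB (-0.24) and COX1 (-0.22) lower, with the length trend removed CYTB and 4 more of the 6 lower (-0.45 to -0.24), and with GC trend alone removed ATP8 and 3 more higher (0.27 to 1.04). Like ND4L and ND4, ATP8 and ATP6 overlap and share an mRNA. Their log2 ratio per length, ATP6 over ATP8, was 1.65, 1.504 and 1.46 in controls and 0.955, 1.55 and 1.01 with talazoparib. Talazoparib replicate 2 lay among the controls and the other 2 talazoparib libraries below them, so this pair did not keep the steady ratio of ND4L and ND4.

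Nuclear complex I subunits mostly rose or did not pass. The test called 22 of 37 higher and 1 lower, leaving 14 not called, where 26.8% of all genes tested rose and 29.9% fell. The median log2 fold change of the 37 was 0.31, beside -0.19 for the mitochondrially encoded members and 0.00150 over all genes tested. NDUFS8 (0.64 ± 0.09, SE) and NDUFS7 (0.54 ± 0.09), which carry iron-sulfur clusters, and NDUFA13 (0.64 ± 0.10) and NDUFB11 (0.56 ± 0.10), accessory subunits of the membrane arm, had the smallest adjusted p of this list (edgeR adjusted p = 0.000143 to 0.000436). NDUFS4, an accessory subunit of the matrix arm named here after its value was seen, was the one that fell (-0.62 ± 0.13; edgeR adjusted p = 0.00146). With GC and length trend removed, 15 of the 37 rose and 6 fell, where 22.3% of all genes rose and 22.5% fell, with a median of 0.044, and the 4 genes named first stood between -0.023 and 0.059. Per length, the nuclear subunits had a median of 62.3 FPKM in controls and 76.9 FPKM with talazoparib, and the highest, NDUFB9, had 323 and 359 FPKM. In both groups the mean of ND6, the lowest of the mitochondrial members, was above that.

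**Figure D4:**
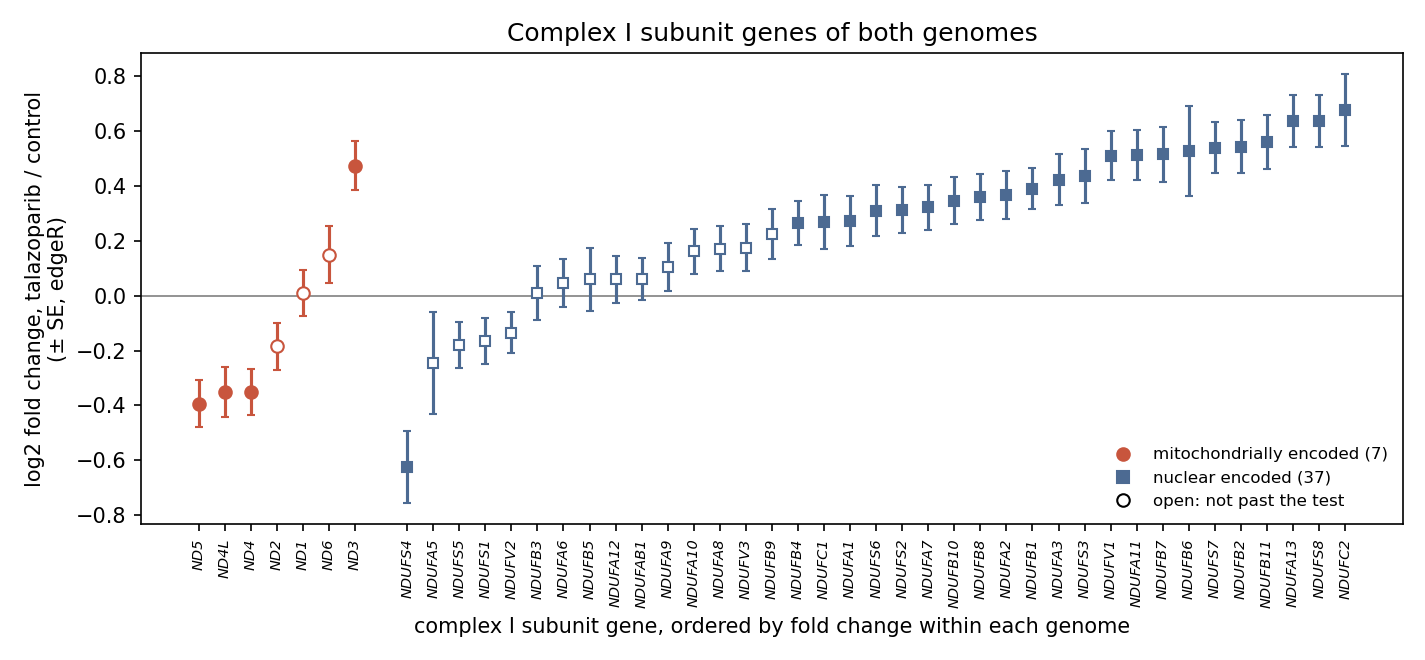
Log2 fold change with SE from edgeR for the 7 mitochondrially encoded (circles) and 37 nuclear (squares) complex I subunit genes, ordered by fold change within each genome; open symbols did not pass. Most nuclear subunits lie above 0, with 22 called higher and NDUFS4 lower. Of the mitochondrial members, 3 were called lower (ND4, ND4L and ND5) and ND3 was called higher. Over all genes tested, 26.8% were called higher and 29.9% lower.

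Genes that make, assemble and handle these products were called in both directions, where 26.8% of all genes tested rose and 29.9% fell. Of 18 complex I assembly factors, 6 rose and 4 fell (median -0.07), which is near that background, with FOXRED1 (0.43 ± 0.08, SE), ECSIT (0.44 ± 0.11) and NDUFAF8 (0.38 ± 0.10) higher and TMEM126A (-0.57 ± 0.13) lower. In the list of mitochondrial transcription and DNA maintenance, 8 of 16 fell and 2 rose (median -0.29). TFB2M, which opens mitochondrial promoters with the RNA polymerase, fell from 18.5 ± 1.98 to 9.60 ± 0.506 CPM (SD, n = 3 each), and MTERF1 (-1.11 ± 0.22), MTERF2 (-1.03 ± 0.20) and MTERF3 (-0.75 ± 0.14) of the mitochondrial termination factor family fell as well. In the list of mitochondrial RNA processing and turnover, 11 of 19 fell and 4 rose (median -0.35). LRPPRC, which binds and stabilises heavy-strand mitochondrial mRNAs, was at 150.3, 207 and 215 CPM in controls and at 83.6, 69.9 and 80.7 CPM with talazoparib. Every talazoparib library was below every control, and control replicate 1 was the lowest of its group (log2 fold change -1.29 ± 0.13; edgeR adjusted p = 1.91e-05). The poly(A) polymerase MTPAP (-0.90 ± 0.12), the exoribonuclease PNPT1 (-0.95 ± 0.15) and FASTKD2 (-0.99 ± 0.13), which binds ND6 and ribosomal RNA, fell too. With GC and length trend removed, LRPPRC stood at -0.63, TFB2M at -0.58, PNPT1 at -0.37 and MTPAP at -0.28, past the test, and FASTKD2 at -0.22, not past it (edgeR adjusted p = 0.1004). In that fit, 7 of 16 transcription and DNA genes were lower and 3 higher, and 5 of 18 RNA processing genes were lower and 2 higher, where 22.5% of all genes were lower and 22.3% higher. The count of RNA processing genes called lower is near that background. Of the 18 assembly factors, 5 were higher and 3 lower in that fit. NDUFAF8 turned to lower and passed (-0.22, edgeR adjusted p = 0.00443), and TMEM126A stayed lower (-0.23, edgeR adjusted p = 0.0472). FOXRED1 (0.13, edgeR adjusted p = 0.0511) and ECSIT (-0.089, edgeR adjusted p = 0.271) did not pass there.

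Changes across the transcriptome followed GC content and length, and the members are short and of middling to low GC content. Their GC content ran from 40.2% (ND3) to 47.7% (ND1). Nuclear genes in the GC decile of ND3 had a median log2 fold change of -0.67, those in the decile of ND2, ND4L and ND6 -0.53, those in the decile of ND4 and ND5 -0.35, and those in the decile of ND1 -0.14. In the lowest length decile, 111 to 1508 nt, which holds all members but ND5, the median was 0.34, and in the decile of ND5 0.28. ND3 was higher than the median of its GC decile by more than any other member, and only 10 nuclear genes with both values are shorter than its 346 nt. With GC and length trend removed, ND3 and ND6 passed as higher and ND4, ND4L and ND5 as lower. The 3 ways of removing a trend gave a different set of called members each time, and whether a trend fitted on nuclear mRNAs holds for mitochondrial ones was not tested.

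**Figure D5:**
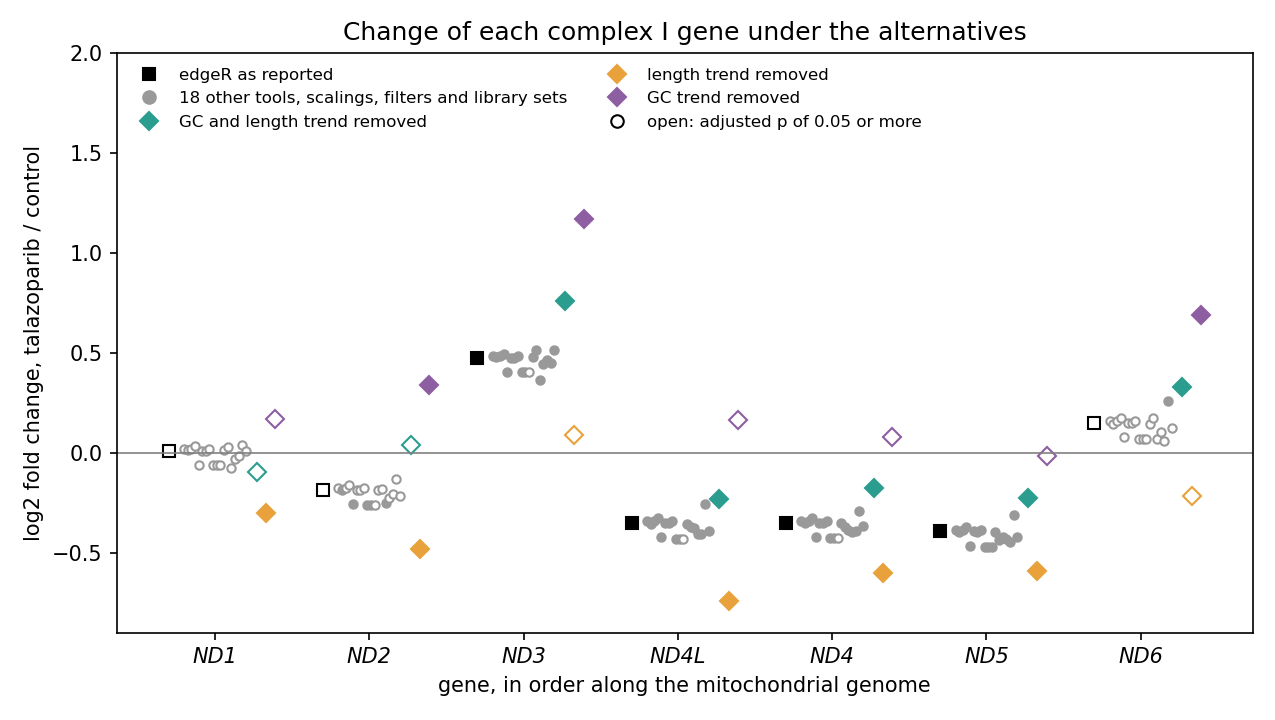
Log2 fold change of each complex I gene as reported (black squares), under 18 other tools, scalings, filters and sets of libraries (grey), and with the trend over GC content and length, length alone or GC content alone removed (diamonds); open symbols had an adjusted p of 0.05 or more. The grey points of ND3 lie between 0.36 and 0.51, and its diamonds between 0.087 and 1.17.

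Over the 6 libraries, the mean centred log2 CPM of the members was 0.12, -0.014 and 0.034 in controls and 0.040, -0.17 and -0.012 with talazoparib. Since members moved both ways, this mean differs little between groups and is lowest in talazoparib replicate 2. Of 10096 non-mitochondrial genes with a mean of at least 5 CPM, those with the smallest root mean square difference from it were TIMM9 (0.024), which carries proteins across the space between the mitochondrial membranes, UBE2D2 (0.028), a ubiquitin-conjugating enzyme, CYSTM1 (0.029), SEMA6C (0.029) and WSB2 (0.036), on the log2 scale over 6 libraries. The median over all genes compared was 0.25.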

How the data were processed

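The labels' protocols give TRIzol extraction and the VAHTS Universal V6 RNA-seq kit, and GRCh38, HISAT2, HTSeq, Cufflinks and Trimmomatic appear, without versions, in the submitters' processing notes. The deposited count table holds whole-number counts per gene symbol. Dividing each count by its column total and by 1 length per gene gave the FPKM deposited by the authors; the implied lengths were whole within 0.01 nt for 99.9% of genes with a count. FPKM is used here for levels per length, counts for tests. Counts were tested with edgeR 4.0.16 (R 4.3.3; limma 3.58.1 and DESeq2 1.42.0 as alternatives): filterByExpr with a minimum count of 10, TMM scaling, quasi-likelihood test with robust dispersion, Benjamini-Hochberg adjustment at 0.05. The SE was taken as |log2 fold change| / √F. Single values were compared by exact permutation over libraries. Trends over GC content and length (GENCODE 29 transcripts; 91.2% of genes tested, members included) were removed as spline offsets with 5 degrees of freedom. The fit was also run on counts simulated from the gene means and dispersions of these data, with known changes added. Those counts held no GC or length trend, so that run cannot show how such trends affect the calls.

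Members and gene lists were chosen with earlier results of these data known. Named genes are all members, the other mitochondrial protein genes, up to 4 genes with the smallest adjusted p from each nuclear list, PARP1, PARP2 and the 5 nearest profiles; others are said to be named after their values were seen. The mitochondrial rRNAs and KLK3 were not analysed here.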

Additional observations from a re-analysis of the deposited data

How the results depend on the processing

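Over 21 alternatives for each, ND3 stayed higher in all and passed in 19, ND5 stayed lower in all and passed in 20, and ND4 and ND4L passed as lower in 19 each. The number of complex I members called was 4 or 5 when single libraries were left out. It was 1 (ND5, lower) with limma on log2(FPKM + 1) without a filter, and within 1.5 times of 4 otherwise. The direction of the calls was less steady. With the GC trend alone removed 3 members passed, all higher, and with the length trend removed 5 passed, all lower. The cause was not tested. The number of genes changed ran from 5893 to 8549. Log2 fold changes turned sign with the GC trend alone removed, an alternative chosen after seeing the data, for ND2 (0.34), ND4 (0.077) and ND4L (0.16), with GC and length trend removed for ND1 (-0.097) and ND2 (0.040), and with the length trend removed for ND1 (-0.30) and ND6 (-0.22); the cause was not tested. ND1 also turned to -0.063 with total counts as the scale and with limma on log2(FPKM + 1), log2(FPKM + 0.1) and unfiltered log2(FPKM + 1), and ran from -0.076 to 0.041 without single libraries. The log2 ratio of ND4 to ND4L ran from -0.035 to 0.031 without single libraries.

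Shares and the ND6 ratio kept their direction in every alternative run: the share of all counts differed by -0.717 to -0.460 percentage points, the share of summed FPKM by -1.41, the share of mitochondrial mRNA by -2.48 to -2.10 on counts and -1.25 on FPKM, and the ND6 log2 ratio by 0.23 to 0.40. Without 1 library the smallest exact p is 0.20. The share with rRNAs in the denominator was not run. Same-numbered libraries did not deviate together (correlations of -0.094, -0.17 and 0.0039), so the numbers were not taken as pairs. With the replicate number as a block 7580 genes were called, and the same 4 complex I members passed in the same directions (ND3 0.48, ND4 -0.35, ND4L -0.36, ND5 -0.40); of the other mitochondrial genes ATP8 passed as higher with it (0.31, adjusted p = 0.0455). The block left the 3 summed differences at an exact sign-flip p of 0.25, the smallest possible.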
